A study of Mus musculus with 48 samples.

Results

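The polyglutamine disease genes are genes whose human counterparts cause neurodegenerative disease when a CAG repeat in their coding sequence lengthens. The 8 genes described here were taken by name: Htt, Atxn1, Atxn2, Atxn3, Atxn7, Cacna1a, Tbp and Atn1. They are 8 of the 48795 genes in the tables, and all 8 were among the 20010 genes that passed the low-count filter. The libraries came from cerebral cortex of 48 C57BL/6 mice aged 6 months, 24 of each sex, in 6 genotype groups. These were wild type (WT, n = 7), mice heterozygous for the Q140 knock-in (Q140, n = 8), Msh3+/- (n = 9), Msh3-/- (n = 8), and both combined genotypes, Q140 x Msh3+/- (n = 8) and Q140 x Msh3-/- (n = 8). In the Q140 knock-in an expanded CAG repeat sits in exon 1 of the mouse's own Htt gene, so both the expanded and the normal allele are read from the Htt promoter. Msh3 encodes a mismatch repair protein that acts on small DNA loops and is known to promote lengthening of the Htt repeat in body cells. The labels do not say how the Msh3 allele was made. Of the 48 mice, 36 share the stem of their sample name with 1 to 3 others, and 13 of these 15 shared stems span genotype groups. The labels do not say what a stem stands for. The correlation within stems fitted over all genes was 0.106, and with the stem as a random block 0 of the 8 genes were called in any comparison.

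Long glutamine stretches make the encoded proteins aggregate, and each expanded protein harms a characteristic set of neurons although most of these genes are read in many cell types. Htt encodes huntingtin, a large scaffold protein involved in vesicle transport, and its expansion causes Huntington's disease. The others act in transcription (Atxn1, Atxn7, Tbp and Atn1), RNA handling (Atxn2), removal of ubiquitin (Atxn3) or calcium entry into neurons (Cacna1a).

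The mouse genes carry short glutamine runs compared with the expanded Q140 allele. The longest run of glutamine codons was read from the coding sequence of 1 transcript of each gene in GENCODE M21 (GRCm38). It had 13 codons in Tbp, 7 in Htt, 6 in Atxn3, 5 in Atxn7 and 3 each in Atxn1, Atxn2, Cacna1a and Atn1. Thus 4 of the 8 had no run of 4 or more. These are the longest runs anywhere in the coding sequence. For genes other than Htt, whether they lie at the place of the human repeat was not tested. The 4 longest runs are printed 5′ to 3′ on the coding strand, with the glutamine codons in capitals and 15 bases on each side in lower case.
Htt: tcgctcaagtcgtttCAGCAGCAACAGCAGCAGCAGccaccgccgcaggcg
Tbp: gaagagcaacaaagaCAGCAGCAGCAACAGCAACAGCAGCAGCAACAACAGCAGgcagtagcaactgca
Atxn3: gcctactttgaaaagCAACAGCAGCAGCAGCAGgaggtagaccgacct
Atxn7: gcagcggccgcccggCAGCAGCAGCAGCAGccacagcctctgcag
The Htt run lies in exon 1 of 67 of Htt-201, at codons 18 to 24 (chr5:34761943-34761993, plus strand, flanks included), and is the site that the Q140 allele lengthens. It holds 6 CAG codons and 1 CAA codon. The Tbp run (exon 4 of Tbp-201, chr17:15504376-15504444, plus strand) mixes 9 CAG with 4 CAA codons, and its longest unbroken CAG stretch is 3 codons. The Atxn7 run (exon 2 of Atxn7-202, chr14:14013141-14013185, plus strand) is 5 CAG codons without interruption. The Atxn3 run has 5 unbroken CAG codons after 1 CAA codon; its printed window spans a junction at exon 10 of Atxn3-201 (chr12, minus strand, between 101926548 and 101932981), so it is not continuous in the genome. These are reference sequences; the tables hold counts per gene and no repeat length of any mouse.

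The deposited counts summed to 35.9 to 64.5 M per library (mean 46.5 M). Counts of single members ranged from 645 for Atn1 to 26755 for Cacna1a, so every member was deeply covered in every library. Msh3 RNA was higher in the libraries labelled as altered: 24.2 ± 1.06 CPM in WT, 67.4 ± 5.1 in those labelled Msh3+/- and 109 ± 7.91 in those labelled Msh3-/- (SD over mice; CPM is the count scaled to library size, after TMM). This goes against a reading of the labels as loss of Msh3 RNA, so the Msh3 group names are used below as labels only. Abhd1, a gene of chromosome 5 that differs with the Q140 allele in these mice, lay above 4 CPM in 8 of 8 Q140 mice and 0 of 24 mice without Q140. It was above 4 CPM in 7 of 8 mice labelled Q140 x Msh3+/- and 5 of 8 labelled Q140 x Msh3-/-. Abhd1 is not the Htt allele, so the 4 libraries below that level (Q140 x Msh3+/- male 2 and Q140 x Msh3-/- females 1, 3 and 4) kept their labels, and results were also computed without them. Defining neuron markers were present at like levels in all groups, with the 12 markers summing to 11310 to 12770 CPM over the 48 libraries. Choroid plexus markers summed to 4.89 to 15.8 CPM in the other 4 groups but reached 394 CPM in WT and 1257 CPM in Msh3-/-, so results were also computed without Msh3-/- females 3 and 4 and WT male 3.

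All 8 genes were expressed in cortex, with means from 2.71 to 34.7 FPKM. Levels between genes are compared as FPKM, fragments scaled by exon length and library size, as deposited. Cacna1a, the pore subunit of the presynaptic P/Q-type calcium channel, was highest at 34.7 ± 2.13 FPKM (SD over 48 mice; range 29.1 to 39.4). Atxn1, a chromatin-associated repressor that works with Capicua, followed at 14.3 ± 1.03, and Atxn2, an RNA-binding protein that associates with poly(A)-binding protein, at 12.3 ± 0.473. Htt stood in the middle at 9.78 ± 0.348 FPKM. Below it were Atxn3, a deubiquitinase, at 7.22 ± 0.448 and Atxn7, a subunit of the deubiquitinase module of the SAGA coactivator, at 6.82 ± 0.532. Atn1, which encodes the corepressor atrophin 1, had 4.47 ± 0.293 FPKM. Tbp, the TATA-binding protein used by all nuclear RNA polymerases, was lowest at 2.71 ± 0.139.

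Most neighbours in this order were separated in every mouse. The ranges did not overlap between Cacna1a and Atxn1, Atxn2 and Htt, Htt and Atxn3, Atxn7 and Atn1, or Atn1 and Tbp, each with the same order in 48 of 48 mice. Atxn1 and Atxn2 overlapped (Atxn1 higher in 46 of 48 mice), and so did Atxn3 and Atxn7 (Atxn3 higher in 34 of 48). The deposited FPKM imply a length of 10605 bases for Atxn1 and 6847 for Atxn7, against 13914 and 7978 exon bases in GENCODE M21. For Atxn2 both lengths are 15689 bases, so the order of Atxn1 and Atxn2 depends on the length used. The place of Atn1 is uncertain: 84.2% of its 4600 exon bases in GENCODE M21 are shared with Gm45234, a gene model on the same strand that was assigned 3 to 22 counts a library, and how reads shared by both were counted is not given in the sources used here. Tbp shares 19.0% of its exon bases with Pdcd2 on the opposite strand, and whether the counting used strand is likewise not given.

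**Figure D1:**
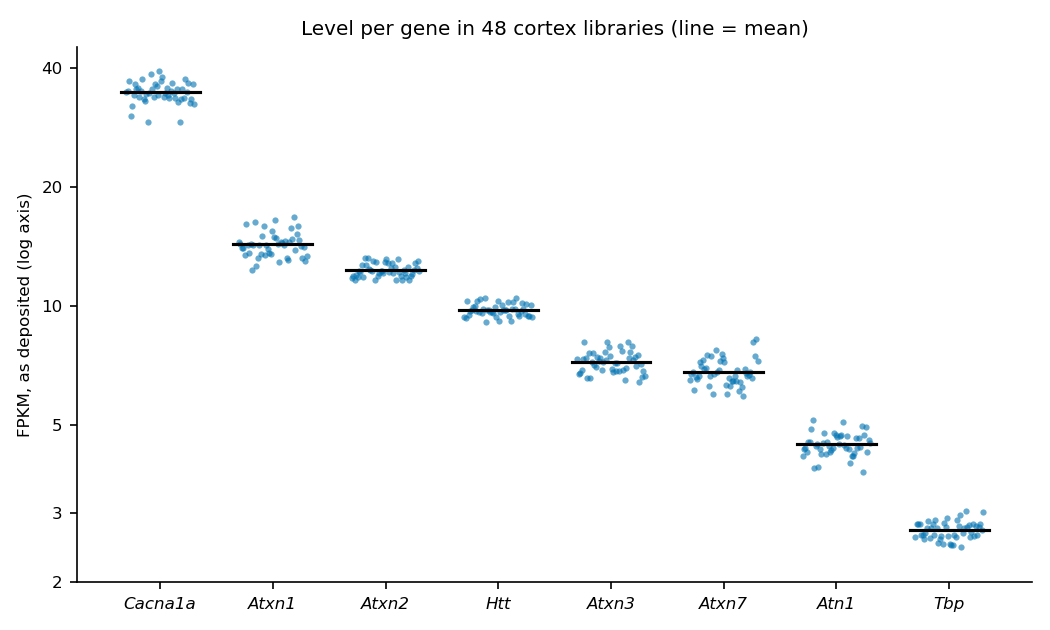
Deposited FPKM (log axis) of the 8 genes, each point 1 of 48 mice and each line the mean. Cacna1a stands alone at 34.7, the pairs Atxn1 with Atxn2 and Atxn3 with Atxn7 overlap, and Tbp is lowest at 2.71.

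Htt varied less from mouse to mouse than most genes of like level. Its CPM had a coefficient of variation of 3.59% over all 48 mice, and 10.9% of the 1562 genes with a mean CPM within 2-fold of its own had a smaller one, as did 4.65% of the 10039 genes with a mean of at least 10 CPM. For the other members, ranked in the same way, 24.7% of genes were steadier than Tbp (4.91%), 25.9% than Atxn2 (4.23%), 46.9% than Atn1 (6.64%) and 49.3% than Atxn3 (5.85%). Above the median of their level were Cacna1a at 6.02% (68.1% of genes were steadier), Atxn7 at 7.54% (77.4%) and Atxn1 at 7.28% (82.2%). Genes of like level were used because counting noise raises the coefficient of weakly read genes.

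None of the 8 genes passed the test in any of 12 comparisons at an adjusted p of 0.05. These were 11 comparisons of genotypes and 1 of sexes, from 1 fit over all 48 mice with sex as covariate. Few genes of any kind were called between genotypes, so a count of 0 is close to the background. The share of all tested genes called was 0.01% for Q140 against WT, 0.015% for Q140 x Msh3+/- against Msh3+/- and 0.0% for Q140 x Msh3-/- against Msh3-/-. It was 0.035% for all Q140 carriers against all non-carriers. It was 0.025% for Msh3+/- against WT, 0.035% for Msh3-/- against WT, 0.02% for Q140 x Msh3+/- against Q140 and 0.045% for Q140 x Msh3-/- against Q140. For both groups labelled Msh3-/- against both with unaltered Msh3 it was 0.085%, and for the differences between Q140 effects 0.0% with Msh3+/- and 0.0% with Msh3-/-. At an unadjusted edgeR p under 0.05 there were 11 member results among the 88 genotype tests: 1 in Q140 against WT, 2 in Q140 x Msh3+/- against Msh3+/-, 2 in Q140 x Msh3-/- against Msh3-/-, 2 in Msh3+/- against WT, 1 in Msh3-/- against WT, 1 in Q140 x Msh3-/- against Q140 and 1 in each difference between Q140 effects. In these comparisons 5.35% to 9.5% of all genes had such a p. Atxn7 gave 1 of the member results in each comparison named except Q140 x Msh3-/- against Q140, from overlapping groups of mice. The rest were 1 each from Cacna1a, Atn1, Atxn3 and Atxn2, so the 11 are not separate evidence on the members as a set. The alternative tools, DESeq2, limma voom and limma run on log2 FPKM, also called 0 members in each comparison. In bulk tissue fewer cells of a type and less RNA per cell cannot be told apart.

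**Figure D2:**
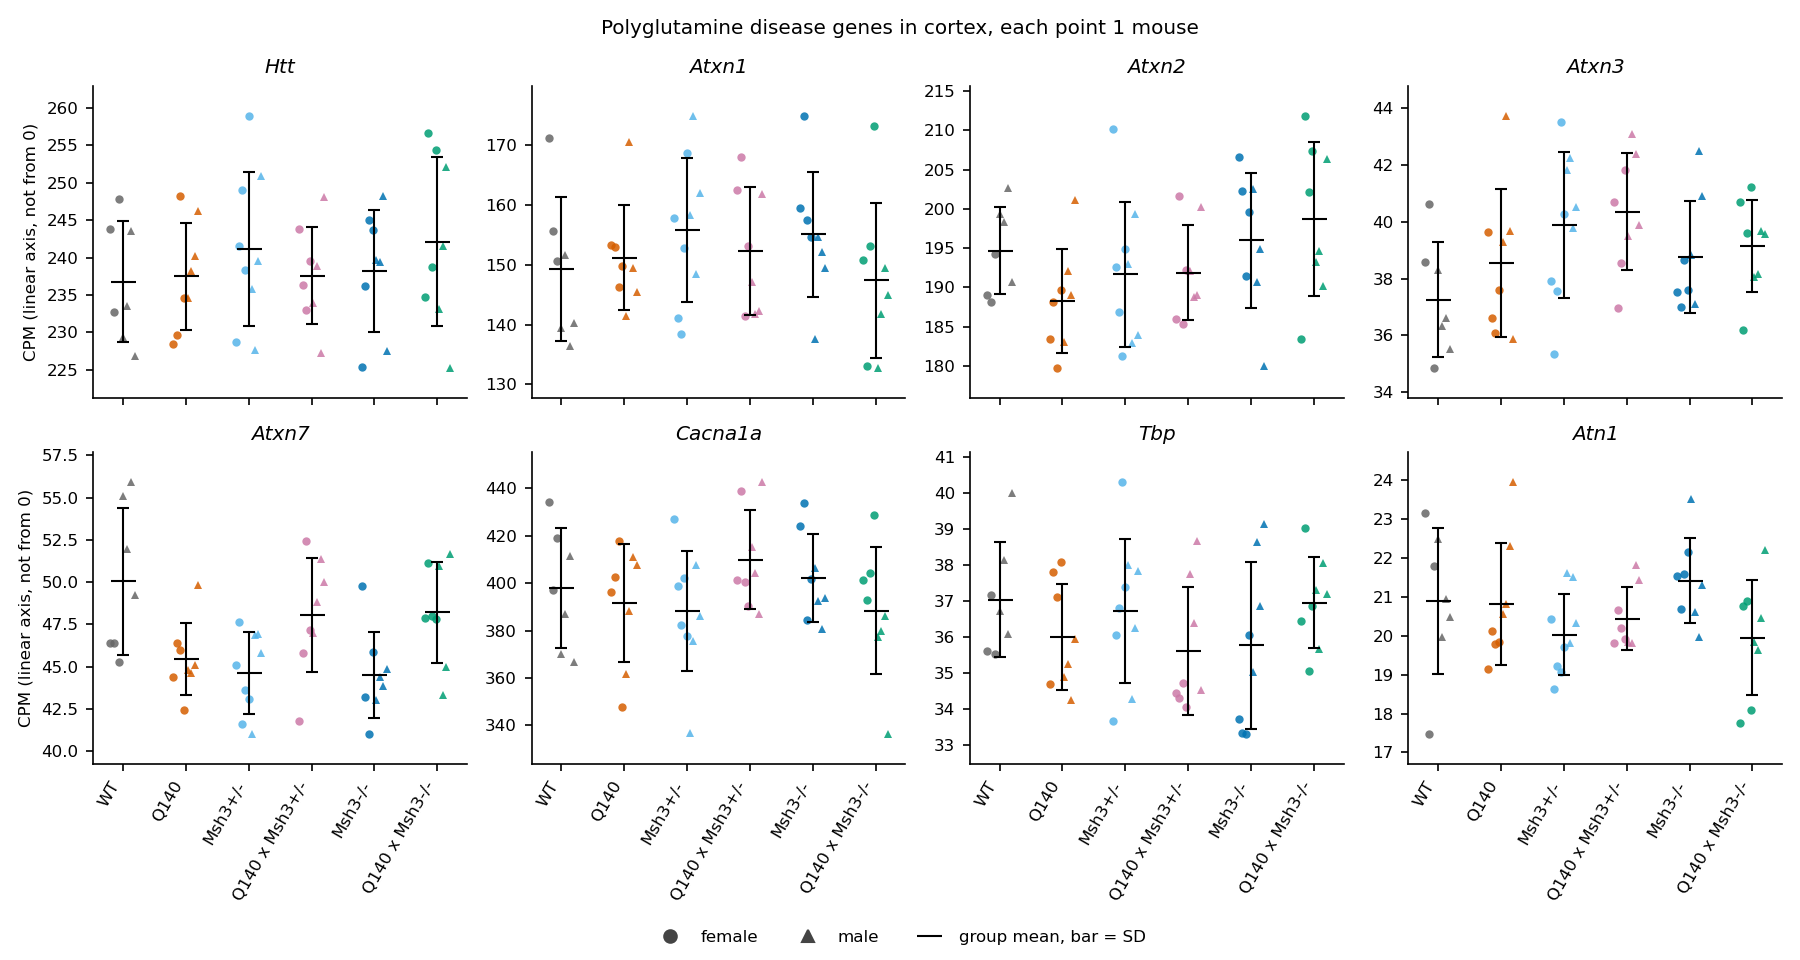
CPM of each gene in each of 48 mice by genotype group (linear axes that do not start at 0; circles are females, triangles males, bars are mean and SD). The groups overlap for every gene; Htt group means lie between 236.8 and 242.1 CPM, and the 4 WT males of Atxn7 lie at 49.25 CPM or more.

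Htt RNA did not differ detectably with its own expanded allele. WT mice had 226.9 to 247.8 CPM (median 233.5) and Q140 mice 228.4 to 248.2 (median 236.4), with means of 236.8 ± 8.13 and 237.5 ± 7.16. Mice labelled Msh3+/- had 227.7 to 258.9 CPM (median 239.6) without and 227.2 to 248.1 (median 237.7) with Q140. Those labelled Msh3-/- had 225.4 to 248.3 CPM (median 239.6) without and 225.3 to 256.7 (median 240.2) with Q140. All 6 groups covered nearly the same range, and their means spanned 2.24% of the lowest. The log2 fold change of Q140 against WT was 0.0033 ± 0.0286 (SE), with a 95% interval of -0.0543 to 0.0609 (0.963-fold to 1.04-fold; edgeR adjusted p = 0.994). Over all carriers against non-carriers (24 mice each) it was 0.0022 ± 0.016, and the interval of 0.979-fold to 1.02-fold bounds any difference more tightly than for any other member. Without the 4 libraries with low Abhd1 the carrier value was 0.002. The tables count both alleles together, so a gain of RNA from one allele offset by a loss from the other would not show.

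Atxn7 had the widest spread between group means of the 8 genes, 12.4% of the lowest mean. Its CPM was 45.25 to 55.91 in WT (median 49.25), 42.44 to 49.85 in Q140 (median 44.95), 41.03 to 47.61 in Msh3+/- (median 45.09) and 41.02 to 49.75 in Msh3-/- (median 44.14). Q140 x Msh3+/- mice had 41.78 to 52.46 CPM (median 47.99) and Q140 x Msh3-/- mice 43.34 to 51.64 (median 47.95). The WT group thus reached highest, the groups with 1 kind of altered allele were lower, and the groups with both kinds lay between, with overlap throughout. Of the mice, 5 of 8 Q140, 5 of 9 Msh3+/- and 6 of 8 Msh3-/- mice lay below the lowest WT mouse, against 1 of 8 and 2 of 8 in the groups with both alleles.

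The fitted Q140 effects on Atxn7 had opposite signs in mice with and without altered Msh3, but none passed the test. Q140 against WT was -0.14 ± 0.05 on the log2 scale (0.910-fold, 95% interval 0.854 to 0.970; edgeR unadjusted p = 0.00468, adjusted p = 0.822). The Q140 effect was 0.10 ± 0.04 among mice labelled Msh3+/- (edgeR adjusted p = 0.78) and 0.12 ± 0.04 among those labelled Msh3-/- (edgeR adjusted p = 0.685). The difference between these effects, tested directly, was 0.24 ± 0.06 with Msh3+/- (edgeR unadjusted p = 0.000405, adjusted p = 0.629) and 0.25 ± 0.06 with Msh3-/- (edgeR unadjusted p = 0.000263, adjusted p = 0.922). Both differences are taken against the same Q140 and WT mice and so are not separate evidence. Without Q140, Atxn7 was -0.16 ± 0.04 in Msh3+/- against WT (edgeR adjusted p = 0.311) and -0.16 ± 0.05 in Msh3-/- against WT (edgeR adjusted p = 0.464), again with the same WT mice in both.

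Within WT the males lay above the females, and over all groups the values went with the position of the well. The 4 WT males had 55.11, 51.98, 55.91 and 49.25 CPM and the 3 WT females 46.39, 46.39 and 45.25, so the high WT values were all from males. Q140 males had 44.63 to 49.85 CPM and Q140 females 42.44 to 46.38. Mean levels were 53.06 CPM in WT males against 46.09 in Q140 males, and 46.01 in WT females against 44.78 in Q140 females, with 3 or 4 mice each. The order of the sexes was not the same in all groups: means were higher in males in Msh3+/- (45.15 against 44.2) and Q140 x Msh3+/- (49.29 against 46.8) and higher in females in Msh3-/- (44.95 against 44.05) and Q140 x Msh3-/- (48.7 against 47.72). Whether the genotype effects differ by sex was not tested. Without the 3 libraries with choroid plexus RNA, which include the highest WT male, Q140 against WT was -0.109. Msh3+/- against WT was then -0.134 and Msh3-/- against WT -0.132, and the differences between Q140 effects were 0.213 and 0.218. The Q140 effects were 0.104 among mice labelled Msh3+/- and 0.109 among those labelled Msh3-/-. Without the 4 libraries with low Abhd1 these effects were 0.103 and 0.105 (edgeR unadjusted p = 0.033 and 0.0565). Plate position of the well also went with Atxn7: its mean was 44.88 CPM in plate column 1, 44.8 in column 5, 45 in column 6, 46.96 in column 2, 49.01 in column 3 and 49.54 in column 4, with 8 mice in each. WT had 2 mice in column 2, 3 in column 3, 1 in column 4 and 1 in column 6, and Q140 x Msh3-/- had 7 of 8 mice in columns 3 and 4. With plate column as a factor, Q140 against WT moved to -0.08, the Q140 effects to 0.057 among mice labelled Msh3+/- and 0.056 among those labelled Msh3-/-, and the differences between Q140 effects to 0.136 and 0.136. Msh3+/- against WT moved to -0.089, and Msh3-/- against WT stayed closer, at -0.135 (edgeR adjusted p from 0.744 to 1.0 for these 7 values). With plate row as a factor Q140 against WT and the difference with Msh3+/- shrank slightly, and the other values grew in size. Q140 against WT was -0.131, the Q140 effects were 0.106 and 0.179, their differences 0.237 and 0.31, Msh3+/- against WT -0.166 and Msh3-/- against WT -0.188 (edgeR adjusted p from 0.17 to 0.977; the smallest unadjusted edgeR p was 2.02e-05, for the difference with Msh3-/-). The part of plate position in these values was not tested further. Over mice of all groups Atxn7 was 1.03-fold in males against females (95% interval 0.995 to 1.07; edgeR adjusted p = 0.322).

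**Figure D3:**
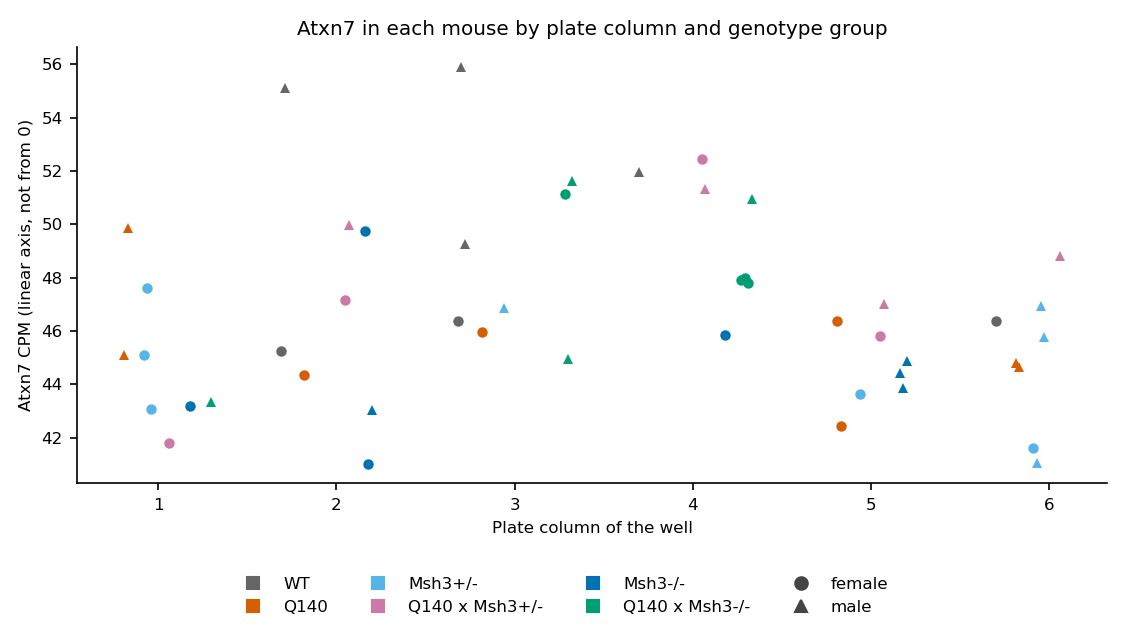
Atxn7 CPM of each mouse (linear axis that does not start at 0) by plate column of its well, coloured by genotype group, with circles for females and triangles for males. Values in columns 3 and 4 average 49.01 and 49.54 CPM against 44.88, 44.8 and 45 in columns 1, 5 and 6, and the 2 highest points are WT males.

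Among the other transcription genes no member passed the test. Atxn1 had 136.5 to 171.3 CPM in WT (median 150.6) and 141.4 to 170.5 in Q140 (median 149.7), and its group means ran from 147.4 in Q140 x Msh3-/- to 155.9 in Msh3+/-. It lies on chromosome 13 like Msh3, 46.2 Mb away, and its level in the groups labelled Msh3-/- against those with unaltered Msh3 was 1.005-fold (95% interval 0.956 to 1.06; edgeR adjusted p = 0.973). Tbp had the narrowest group means after Htt, 35.61 to 37.04 CPM. It had 35.52 to 40.01 CPM in WT (median 36.73) and 34.26 to 38.09 in Q140 (median 35.59), 0.974-fold (95% interval 0.926 to 1.03; edgeR adjusted p = 0.95). Atn1 had 17.48 to 23.14 CPM in WT (median 20.94) and 19.15 to 23.94 in Q140 (median 20.34), 0.998-fold (95% interval 0.937 to 1.06; edgeR adjusted p = 0.996). Its lowest genotype mean was 19.95 CPM in Q140 x Msh3-/- against 21.41 in Msh3-/-, 0.931-fold (95% interval 0.875 to 0.990; edgeR unadjusted p = 0.0245, adjusted p = 0.701), with 5 of the 8 Msh3-/- mice and 1 of the 8 Q140 x Msh3-/- mice above the WT median.

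Atxn2, the RNA-handling member, lies on chromosome 5 like Htt, 86.8 Mb away. It had 188.2 to 202.6 CPM in WT (median 194.3) and 179.8 to 201.1 in Q140 (median 188.6), and 1 of 8 Q140 mice was above the WT median. The fold change was -0.05 ± 0.03 on the log2 scale (0.967-fold, 95% interval 0.926 to 1.01; edgeR adjusted p = 0.94). Q140 x Msh3-/- mice had 183.4 to 211.8 CPM (median 198.4) and were 0.08 ± 0.03 above Q140 (1.05-fold, 95% interval 1.01 to 1.1; edgeR unadjusted p = 0.0141, adjusted p = 0.432). Over both groups labelled Msh3-/- against both with unaltered Msh3 the value was 1.03-fold (95% interval 0.9997 to 1.06; edgeR adjusted p = 0.544).

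Atxn3, the deubiquitinase, was lowest in WT. It had 34.86 to 40.64 CPM there (median 36.62), 35.87 to 43.72 in Q140 (median 38.45) and 35.35 to 43.52 in Msh3+/- (median 40.27). In the other groups its medians were 38.14 CPM (Msh3-/-), 39.59 (Q140 x Msh3-/-) and 40.29 (Q140 x Msh3+/-). At least 5 mice of every other group lay above the WT median, and the ranges overlapped. Mean depth was highest in WT, 49.0 M counts against 45.3 to 46.9 M in the other groups. Atxn3 was lower in deeper libraries (given below), and the part of depth in its WT level was not tested. Msh3+/- against WT was 0.10 ± 0.04 (1.07-fold, 95% interval 1.02 to 1.14; edgeR unadjusted p = 0.0131, adjusted p = 0.415). The carrier contrast was 1.02-fold (95% interval 0.987 to 1.05; edgeR adjusted p = 0.949).

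Cacna1a, the calcium channel member, had 366.6 to 434.0 CPM in WT (median 397.2) and 347.7 to 417.8 in Q140 (median 399.4). Its highest group mean was 409.9 CPM in Q140 x Msh3+/-, where no mouse lay below 386.8, against 388.2 in Msh3+/-. That contrast was 0.08 ± 0.04 (1.06-fold, 95% interval 1.003 to 1.12; edgeR unadjusted p = 0.0392, adjusted p = 0.78). The Q140 effect was 0.982-fold with unaltered Msh3 and 0.965-fold among Msh3-/-, with 95% intervals that include no difference.

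**Figure D4:**
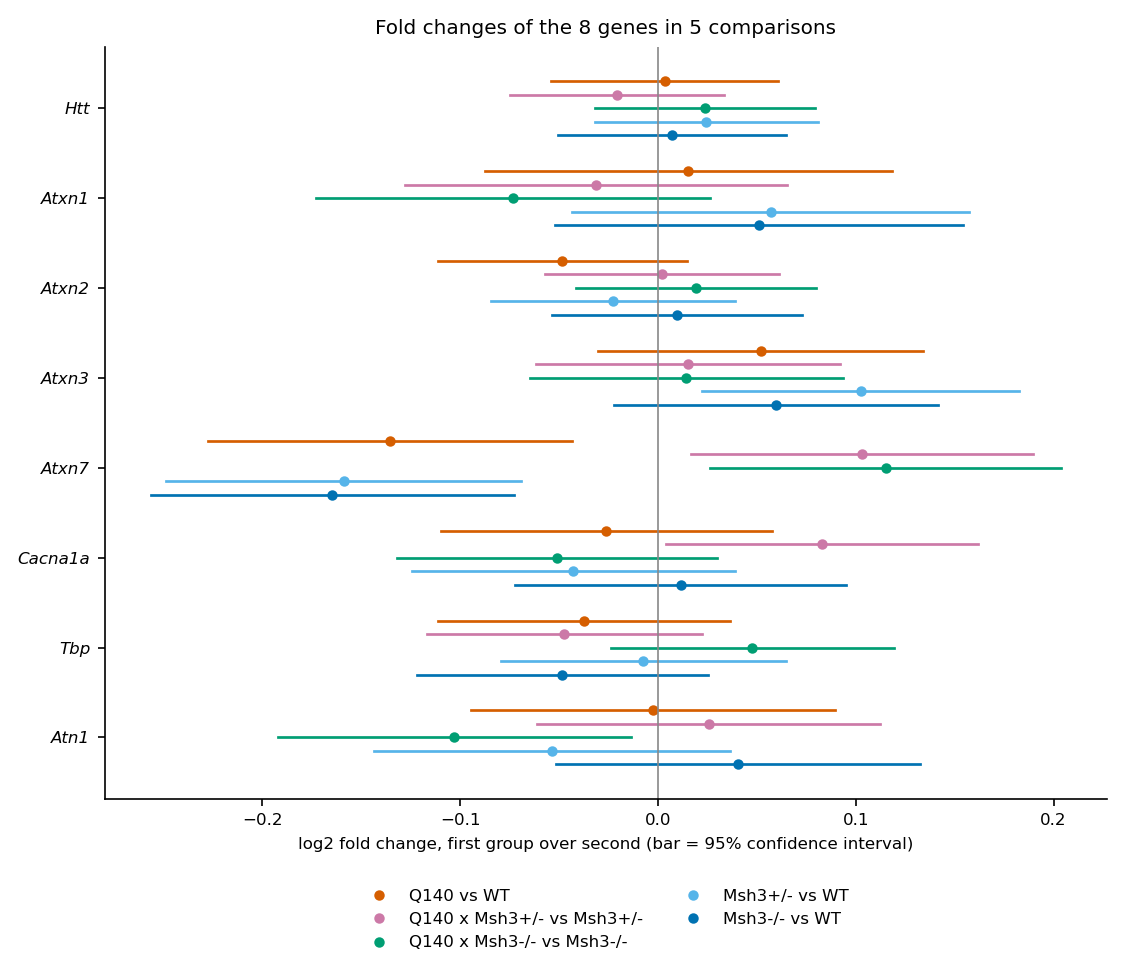
Log2 fold changes with 95% confidence intervals for 8 genes in 5 comparisons, from 1 edgeR fit over 48 mice. Every interval lies within -0.257 to 0.204; the 5 Atxn7 intervals do not include 0 before adjustment over all genes, with Q140 against WT at -0.14 and the Q140 effects in both Msh3-altered groups at 0.10 and 0.12.

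Between the sexes none of the 8 genes was called, which is close to the background. The share called in males against females was 5.56% (1112 genes), and 20.7% of all genes had an unadjusted p under 0.05, as did 2 of the 8 members. Cacna1a had 336.5 to 442.5 CPM in males (median 386.9) and 347.7 to 438.8 in females (median 401.6), 0.958-fold (95% interval 0.927 to 0.990; edgeR adjusted p = 0.104). Atn1 had 19.64 to 23.94 CPM in males (median 20.71) and 17.48 to 23.14 in females (median 20.01), 1.05-fold (95% interval 1.01 to 1.08; edgeR adjusted p = 0.128). The sexes overlapped for both genes, while both intervals exclude equal levels before adjustment over all genes. Over the alternatives the adjusted p for Atn1 ran from 0.0549 (limma on log2 FPKM plus 0.1) to 0.606 (edgeR with plate row as a factor). Htt was 0.989-fold in males (95% interval 0.967 to 1.01; edgeR adjusted p = 0.622).

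The members did not vary together as a group. With genotype and sex taken out of log2 CPM, 15 of 28 pairs had a positive Pearson r over the 48 mice, and 2 pairs passed a permutation test (two-sided, Benjamini-Hochberg over 28 pairs). Atxn2 and Atn1 had r = 0.464 (permutation adjusted p = 0.0238) and Spearman's rho = 0.453 (permutation adjusted p = 0.0381). Leaving out the 2 mice farthest from the Atxn2 median gave r = 0.465, taking out plate column 0.425, females alone 0.378 and males alone 0.575. Without 3 libraries that stand apart on a principal component (Msh3+/- male 2, Q140 male 1 and Q140 x Msh3-/- male 4) r was 0.43 and the permutation adjusted p = 0.0501. Atxn1 and Atxn3 had r = 0.42 (permutation adjusted p = 0.0424) and rho = 0.376, which did not pass (permutation adjusted p = 0.127). Leaving out the 2 farthest mice gave r = 0.305, taking out plate column 0.445, females alone 0.447, males alone 0.382, and leaving out the 3 libraries 0.406 (permutation adjusted p = 0.051). Htt had no pair that passed; its r ran from -0.241 with Atxn7 to 0.263 with Cacna1a (permutation adjusted p = 0.171). With the sexes taken apart, Htt and Cacna1a had r = 0.62 in 24 males (permutation adjusted p = 0.0305) and -0.096 in 24 females (permutation adjusted p = 0.85); the difference between the sexes was not tested. Expression values of 1 library share its depth and tissue composition, and the relations of these with single members are given next.

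**Figure D5:**
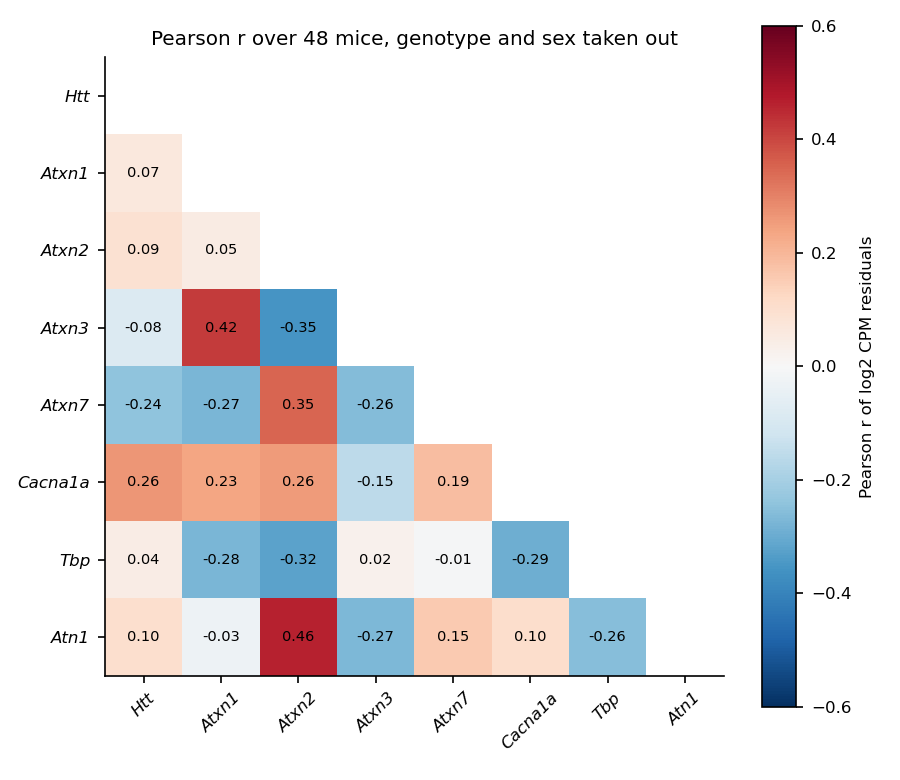
Pearson r of log2 CPM between pairs of the 8 genes over 48 mice, genotype and sex taken out (red positive, blue negative). The highest are 0.46 for Atxn2 with Atn1 and 0.42 for Atxn1 with Atxn3; most others are weaker and of mixed sign.

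Library depth moved with Atxn3, and oligodendrocyte markers and endothelial and mural markers moved with Cacna1a. Of 64 relations of the 8 genes with depth and 7 marker lists, 3 passed on Pearson's r (Benjamini-Hochberg over 64). Atxn3 was lower in deeper libraries (r = -0.542, permutation adjusted p = 0.0032; rho = -0.509, permutation adjusted p = 0.0147; -0.536 without the 2 farthest libraries, -0.522 with plate column out). Atxn1 had r = -0.316 with depth (permutation adjusted p = 0.204). Atxn3 had r = -0.407 with endothelial and mural markers, which did not pass (permutation adjusted p = 0.0677). Its rho of -0.435 with them did pass (permutation adjusted p = 0.039). Cacna1a was lower where the mean log2 CPM of 12 oligodendrocyte markers was higher (r = -0.477, permutation adjusted p = 0.0202; rho = -0.492, permutation adjusted p = 0.0147; -0.364 without the 2 farthest, -0.5 with plate column out). It was higher with 12 endothelial and mural markers (r = 0.432, permutation adjusted p = 0.0442; rho = 0.448, permutation adjusted p = 0.0309; 0.418 without the 2 farthest, 0.424 with plate column out). The summed CPM of the oligodendrocyte markers ran from 1631 to 2527 in WT, 1393 to 2707 in Q140, 1717 to 2445 in Msh3+/-, 1526 to 2492 in Q140 x Msh3+/-, 1491 to 2290 in Msh3-/- and 1632 to 2046 in Q140 x Msh3-/-. Cacna1a had r = 0.015 with astrocyte markers and 0.35 with microglia markers (permutation adjusted p = 0.947 and 0.174). Htt had r between -0.212 and 0.233 with every marker list and 0.082 with depth. The part of depth and cell content in the pairs above was not tested.

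Relatives and partner genes of the members stood at the background between genotypes. Of 133 different tested genes on 10 lists, edgeR called 0 in the 11 genotype comparisons, as did DESeq2 and limma; the share over all genes was 0.0% to 0.085%. An unadjusted edgeR p under 0.05 in carriers against non-carriers was found for 6 of them (4.51%), against 5.63% of all genes. These lists were 11 family relatives, 16 huntingtin partners, 13 ataxin 1 partners, 9 ataxin 2 partners, 8 ataxin 3 partners, 19 SAGA subunits, 21 TFIID and general factors, 15 P/Q channel subunits and partners, 12 atrophin partners and 18 other repeat expansion genes. For carriers against non-carriers the list medians lay between -0.0119 (TFIID and general factors) and 0.00813 (P/Q channel), beside -0.000255 over all genes. F8a, whose product binds huntingtin, was -0.08 ± 0.03 in carriers (edgeR adjusted p = 0.814), and Rbm17, a splicing factor that binds ataxin 1, -0.04 ± 0.02 (edgeR adjusted p = 0.752). Taf10, shared by SAGA and TFIID, was -0.07 ± 0.03 (edgeR adjusted p = 0.762). Nr2e1, a nuclear receptor that binds atrophin, was -0.08 ± 0.04 (edgeR adjusted p = 0.831).

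Between the sexes 8 of these 133 genes were called (6.02%), close to the 5.56% of all genes, and 1 of them is on 2 lists. Atxn1l, a relative of ataxin 1 on 2 of the lists, rose in males by 0.05 ± 0.02 (1.04-fold; edgeR adjusted p = 0.0427). Optn, an autophagy receptor that binds huntingtin, was 1.07-fold (edgeR adjusted p = 0.0169) and Tada2b, a SAGA subunit, 1.09-fold in males (edgeR adjusted p = 0.000375). Of 15 P/Q channel partners, 4 lay above 0 and 11 below in males, with 0 called higher and 2 called lower. The called genes were Cacng2, an AMPA receptor auxiliary protein, at 0.910-fold (edgeR adjusted p = 0.00131) and Rims1, a release-site scaffold, at 0.935-fold (edgeR adjusted p = 0.000613). Of 18 other repeat expansion genes, 9 lay above 0 and 9 below. Stard7 (1.05-fold, edgeR adjusted p = 0.0237) and Cnbp (1.04-fold, edgeR adjusted p = 0.0489) were called higher and Dmpk, the myotonic dystrophy kinase, called lower (0.903-fold, edgeR adjusted p = 0.0451) in males. The medians over the list were -0.0119 for the P/Q channel partners and -0.000118 for the repeat expansion genes, beside 0.00193 over all genes. Of 12 oligodendrocyte markers 1 was called in the same comparison, Olig2 at 0.898-fold in males (edgeR adjusted p = 0.0224); 10 of 12 lay below 0, with a median of -0.108. Of 10 astrocyte markers 8 were below 0, with Aldh1l1 and S100b called lower and Gja1 called higher. In the same comparison 6 of 12 neuron markers lay above 0 and 6 below, and Slc17a7 was called at 1.05-fold. Of 12 striatal projection neuron markers 6 lay above 0 and 6 below, with Drd1 called at 1.17-fold and Rasd2 at 0.895-fold. Of 12 microglia, 12 endothelial and mural and 9 choroid plexus markers 0 were called in any comparison. The smallest p in carriers belonged to Slco1a4 (1.05-fold, edgeR adjusted p = 0.873) among the endothelial and mural markers. Among those of choroid plexus it belonged to Ttr, the transthyretin gene (0.133-fold, edgeR adjusted p = 0.242). The libraries with choroid plexus RNA, WT male 3 and Msh3-/- females 3 and 4, are all from mice without Q140. Their part in the Ttr value was not tested. The part of glial content in the values of the members was not tested.

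Each member also had its own closest genes by Pearson r over the 48 mice, genotype and sex taken out, among 13272 genes with a mean of at least 1 CPM. The closest were Sec14l1 (r = 0.602), Adarb1 (0.601) and Arfgef3 (0.6) for Htt, and Maml3 (0.761), Lrrc16a (0.736) and Pde10a (0.723) for Atxn1. They were Gramd1b (0.865), Gfod1 (0.836) and Pfkfb3 (0.832) for Atxn2, and Cpeb2 (0.712), Dnajc10 (0.675) and Pcmtd2 (0.655) for Atxn3. For Atxn7 they were Zswim6 (0.801), Iqgap1 (0.771) and Tet3 (0.769), and for Cacna1a Plch2 (0.838), Ccdc9 (0.828) and Mical3 (0.8). Tbp was closest to Setd2 (0.701), Pdcd6 (0.681) and Lrrc4c (0.651), and Atn1 to Pptc7 (0.617), Mief1 (0.582) and Ap2b1 (0.576). The 24 genes are all different, and no member appears among them. Without the 3 libraries apart on a principal component these r ran from 0.563 to 0.868. As the highest of 13272 values each is a description with no test.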

How the data were processed

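Cortical RNA (Qiagen RNeasy) was made into TruSeq stranded libraries, per the labels' protocols. The submitters' processing notes list STAR 2.7.5c, SAMtools 1.10, HTSeq 0.12.3 and GRCm38/mm10; the annotation release, strand setting and handling of shared reads are not given in the sources used here. The authors deposited whole-number counts per gene and FPKM values per gene for 48 libraries, 35.9 to 64.5 M counts each. Groups came from the titles. Counts were filtered with filterByExpr (20010 genes kept, 99.963% of counts), scaled by TMM and fitted in edgeR 4.0.16 (R 4.3.3) with genotype and sex over all 48 mice. Quasi-likelihood F-tests gave 12 comparisons, with Benjamini-Hochberg adjustment over all genes tested and calls at 0.05. The fit was also run on simulated counts, where most 1.1-fold changes were not called. Alternatives used DESeq2 1.42.0, limma 3.58.1 on voom values or on log2(FPKM + 0.1 or 1), other scalings, filters, covariates and left-out libraries; leaving out the 4 libraries with low Abhd1, ranking variation among genes of like level, taking plate column out of correlations and taking each sex alone in them were chosen after seeing the data. Correlations used 100000 permutations in NumPy 2.4.6. P-values measure the spread between these mice. Same-numbered mice of different groups did not deviate together on average, though some share a sample-name stem. The glutamine runs and exon overlaps were read from GENCODE M21.

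The genes named are the 8 members in every comparison, Msh3 and Abhd1 for the labels, of each list every called gene or, with none called, the 1 with the smallest p in carriers against non-carriers, and the 3 genes most like each member; a few items under this rule are not reported here. The members and lists were chosen with earlier results of these data known.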

Additional observations from a re-analysis of the deposited data

Results flagged for a closer look

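Atxn1 in Q140 male 2 stood apart from the other Q140 mice. It had 170.5 CPM (6560 counts), the highest of 8, against 141.4 to 153.3 CPM in the other 7, and its gap to the nearest was 0.591 of the range of the group. Mice of other groups reached 174.9 CPM. Of 48 combinations of gene and group examined for a lone highest or lowest value, this was the 1 that stood out, and chance alone marks about 1 in 20.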

How the results depend on the processing

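No member was called under any of 15 alternative settings: 0 of 1416 member values were called, and the smallest adjusted p over the edgeR, DESeq2 and limma fits was 0.0549, for Atn1 in males against females. The sign of 51 of these values turned, all uncalled and between -0.034 and 0.018 on the log2 scale; the cause was not tested. With no low-count filter these were 0.000 for Htt in Q140 against WT. With limma voom these were 0.000 for Htt in Q140 against WT, -0.003 for Atxn2 in Q140 x Msh3+/- against Msh3+/-, 0.003 for Cacna1a in Q140 x Msh3-/- against Q140, -0.002 for Htt in carriers against non-carriers, 0.010 for Cacna1a in Msh3-/- labelled against unaltered. With plate column as a factor these were -0.006 for Htt in Q140 against WT, -0.004 for Atxn1 in Q140 against WT, 0.002 for Htt in Q140 x Msh3+/- against Msh3+/-, -0.001 for Cacna1a in Msh3-/- against WT, 0.002 for Atn1 in Msh3-/- labelled against unaltered, 0.009 for Htt in the difference of Q140 effects with Msh3+/-, 0.002 for Atxn2 in males against females. Without the 3 libraries with choroid plexus RNA these were 0.000 for Atxn1 in Q140 against WT, 0.000 for Htt in Q140 x Msh3+/- against Q140, 0.000 for Cacna1a in carriers against non-carriers, 0.018 for Cacna1a in Msh3-/- labelled against unaltered. With limma on log2(FPKM + 0.1) these were 0.005 for Atn1 in Q140 against WT, 0.007 for Atxn2 in males against females. With limma on log2(FPKM + 1) these were 0.004 for Atn1 in Q140 against WT, 0.006 for Atxn2 in males against females. With the replicate block these were 0.001 for Atn1 in Q140 against WT, 0.003 for Cacna1a in Msh3-/- labelled against unaltered, 0.004 for Tbp in the difference of Q140 effects with Msh3+/-. With a random block for the sample-name stem these were 0.001 for Atn1 in Q140 against WT, 0.000 for Atxn2 in Q140 x Msh3+/- against Msh3+/-, -0.002 for Htt in carriers against non-carriers, 0.000 for Cacna1a in carriers against non-carriers, 0.002 for Cacna1a in Msh3-/- labelled against unaltered. Without the 3 libraries apart on a principal component these were 0.006 for Atn1 in Q140 against WT, -0.006 for Atxn2 in Q140 x Msh3+/- against Msh3+/-, 0.010 for Tbp in Msh3+/- against WT, -0.003 for Htt in Q140 x Msh3+/- against Q140, -0.001 for Atxn1 in Q140 x Msh3+/- against Q140, 0.005 for Cacna1a in Msh3-/- labelled against unaltered. Without the 4 Q140-labelled libraries with Abhd1 under 4 CPM these were -0.034 for Atxn3 in Q140 x Msh3-/- against Msh3-/-, -0.002 for Htt in Q140 x Msh3+/- against Q140, -0.025 for Atxn3 in Q140 x Msh3-/- against Q140, -0.011 for Cacna1a in carriers against non-carriers, -0.021 for Atxn1 in Msh3-/- labelled against unaltered, 0.001 for Tbp in Msh3-/- labelled against unaltered, 0.005 for Atn1 in Msh3-/- labelled against unaltered. With a filter of 1 CPM in 7 mice these were -0.001 for Htt in Q140 x Msh3+/- against Q140, 0.000 for Cacna1a in Msh3-/- labelled against unaltered. With plate row as a factor these were -0.013 for Htt in Q140 x Msh3+/- against Q140, -0.013 for Atxn1 in Q140 x Msh3+/- against Q140, 0.012 for Atn1 in Q140 x Msh3+/- against Q140, 0.004 for Cacna1a in Msh3-/- labelled against unaltered, -0.012 for Htt in the difference of Q140 effects with Msh3-/-. With RLE scaling these were 0.001 for Cacna1a in Msh3-/- labelled against unaltered. With DESeq2 these were 0.001 for Cacna1a in Msh3-/- labelled against unaltered. The number of all genes called in a comparison moved by over 1.5 times as follows, with 0 members among them each time. With a filter of 1 CPM in 7 mice the number of all genes called was 1 for Q140 against WT. With plate column as a factor the number of all genes called was 1 for Q140 x Msh3+/- against Msh3+/-, 12 for Q140 x Msh3-/- against Msh3-/-, 1 for Msh3+/- against WT, 4 for carriers against non-carriers. Without the 4 Q140-labelled libraries with Abhd1 under 4 CPM the number of all genes called was 5 for Q140 x Msh3+/- against Msh3+/-, 2 for Q140 x Msh3-/- against Msh3-/-, 4 for carriers against non-carriers, 11 for Msh3-/- labelled against unaltered. With DESeq2 the number of all genes called was 5 for Q140 x Msh3-/- against Msh3-/-, 12 for Msh3+/- against WT, 14 for Msh3-/- against WT, 12 for carriers against non-carriers, 31 for Msh3-/- labelled against unaltered. With only the groups compared the number of all genes called was 2 for Msh3+/- against WT. With limma voom the number of all genes called was 14 for Msh3-/- against WT, 13 for carriers against non-carriers, 37 for Msh3-/- labelled against unaltered. With limma on log2(FPKM + 0.1) the number of all genes called was 4 for carriers against non-carriers. With limma on log2(FPKM + 1) the number of all genes called was 4 for carriers against non-carriers. With the replicate block the number of all genes called was 4 for carriers against non-carriers. With plate row as a factor the number of all genes called was 4 for carriers against non-carriers, 265 for males against females. Without the 3 libraries with choroid plexus RNA the number of all genes called was 4 for carriers against non-carriers. The number of member pairs called, 2, was 0 without the 3 libraries apart on a principal component and 1 on log2 FPKM. It was 0 in females alone and 2 in males alone, where fewer mice were tested. Those called in males were Htt with Cacna1a and Atxn2 with Atn1, while Atxn1 with Atxn3 did not pass (permutation adjusted p = 0.37).

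The replicate numbers of the titles were checked between libraries of different groups. Those with the same sex and number had a mean r of -0.0312 (115 pairs), and others of 0.00434 (844 pairs). Same-numbered mice thus did not deviate together on average. Some of them share a sample-name stem, and a mean over all pairs cannot tell whether those have a common origin. With the replicate block, 0 members were called, and Atxn7 in Q140 against WT was -0.136. With 7 to 9 mice a group the 95% intervals of the members reached at most -0.257 and 0.204 on the log2 scale in comparisons of groups; the interval beside each result gives what it bounds.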
